A study of Mus musculus with 6 samples.

Results

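The enzymes that turn cholesterol into bile acids and join them to amino acids were followed in mouse liver with and without Abca1 in hepatocytes. The set holds 10 genes of the 29981 rows in the deposited table, each found by its symbol in a row of its own. They are Cyp7a1 and Cyp8b1 of the classic pathway, Cyp27a1 and Cyp7b1 of the alternative pathway, Hsd3b7, Akr1d1, Amacr and Acox2 of the shared steps, and Slc27a5 and Baat of conjugation. Liver RNA came from C57BL/6 mice. In the group labelled HSKO (n = 3) the cholesterol transporter gene Abca1 was deleted in hepatocytes through an Albumin-driven Cre recombinase, and the control group, labelled WT (n = 3), carried floxed alleles. Both groups were fasted from 9 am until 1 pm before the livers were taken. The Albumin promoter is active in hepatocytes, so the deletion was directed at these cells and not at the whole liver. RNA was made into stranded mRNA libraries read from both ends. The sources used here do not say whether the controls also carried Cre, how old the mice were or of which sex. Nor do they tie each sample to 1 mouse, and p-values therefore measure only a spread between samples that may be technical.

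Bile acid synthesis is the main route by which the liver disposes of cholesterol. In the classic pathway Cyp7a1 hydroxylates the sterol ring and sets the rate, and Cyp8b1 adds the hydroxyl group that makes cholic acid. The alternative pathway starts on the side chain with the mitochondrial enzyme Cyp27a1 and continues with the hydroxylase Cyp7b1. Both pathways then share enzymes of the endoplasmic reticulum, cytosol and peroxisome before the acid is activated with coenzyme A and joined to taurine in mice. Bile acids returning to the liver restrain the first steps through the nuclear receptor encoded by Nr1h4 (FXR), and the receptors encoded by Hnf4a and Nr5a2 (LRH-1) are known activators of Cyp7a1 and Cyp8b1.

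Promoters of Cyp8b1, Akr1d1, Hsd3b7, Cyp27a1 and Acox2 were found in the RefSeq table (build GRCm38.p6), 5 of the 10 genes. Those of Cyp8b1, a classic enzyme, and of Akr1d1 and Hsd3b7, shared enzymes whose transcripts are described below as lower, are shown as the 250 bases before the start site, read on the strand of the gene. Capitals mark matches, on either strand, to CAAAGTCCA (a motif specific to HNF4A), CAAGGNCA (the motif of the receptor encoded by Nr5a2) or AGGTCA (the half-site shared by many nuclear receptors). The region of Cyp8b1 is chr9:121916306-121916555 on the minus strand, that of Akr1d1 chr6:37529923-37530172 on the plus strand and that of Hsd3b7 chr7:127800359-127800608 on the plus strand.
Cyp8b1: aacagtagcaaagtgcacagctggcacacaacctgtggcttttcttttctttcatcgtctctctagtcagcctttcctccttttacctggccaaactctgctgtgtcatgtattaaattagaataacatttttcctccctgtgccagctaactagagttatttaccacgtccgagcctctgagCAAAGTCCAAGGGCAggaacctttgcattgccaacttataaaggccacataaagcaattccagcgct
Akr1d1: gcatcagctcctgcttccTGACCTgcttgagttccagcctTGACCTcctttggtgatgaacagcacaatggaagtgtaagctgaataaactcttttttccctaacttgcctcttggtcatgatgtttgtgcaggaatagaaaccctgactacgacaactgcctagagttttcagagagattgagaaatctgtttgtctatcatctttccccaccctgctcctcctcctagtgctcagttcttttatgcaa
Hsd3b7: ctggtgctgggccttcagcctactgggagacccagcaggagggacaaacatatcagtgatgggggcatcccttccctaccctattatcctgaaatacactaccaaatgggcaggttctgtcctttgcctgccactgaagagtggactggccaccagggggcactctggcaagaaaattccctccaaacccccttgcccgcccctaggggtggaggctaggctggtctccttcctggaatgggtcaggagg
The promoter of Cyp8b1 held CAAAGTCCA from 67 to 59 bases before the start and CAAGGNCA from 60 to 53 bases before it, so that the matches overlap and show as 1 run of capitals. The promoter of Akr1d1 held AGGTCA on the opposite strand at 2 places, from 232 to 227 and from 210 to 205 bases before the start. The letters searched were not in the windows of Hsd3b7, Cyp27a1 and Acox2. Among 32817 promoter windows of this length, 0.384% held CAAAGTCCA, 5.53% CAAGGNCA and 14% AGGTCA. A match describes letters in a window and does not show that a factor binds there.

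The deposited values divided into whole numbers, taken here as reads assigned to genes. These summed to between 631020 and 933319 per library, of which 1 row of the table, BC071253, held 43.1% to 57.8%. Depth in assigned reads was thus low, and the number of reads sequenced cannot be seen from these values. The 10 enzymes together had 424, 482 and 681 reads in WT replicates 1 to 3 and 180, 203 and 223 in HSKO replicates 1 to 3. Values below are the deposited ones, which are reads scaled by library, and 1 read was worth 0.564 to 0.763 in WT and 1.33 to 1.46 in HSKO. Differences are log2 fold changes, HSKO minus WT, of value + 1 (limma, adjusted over 2750 genes with a mean of at least 10, called at an adjusted p below 0.05), a scale that understates changes of low genes. Abca1, the targeted gene, had 20, 36 and 34 reads in WT and 2, 1 and 2 in HSKO, which matched the labels of all 6 libraries.

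All 10 enzymes passed the minimum mean of 10. The means of Akr1d1 and Amacr in HSKO were below 10, so these 2 genes entered the test through their WT libraries. Hsd3b7, Akr1d1 and Amacr, all of the shared steps, were called lower in HSKO. In these bulk samples, fewer cells of a type and less RNA per cell cannot be told apart. The other 7 enzymes were not called, and 0 were called higher by limma, edgeR or DESeq2, or by limma at an unadjusted p below 0.05. Among all genes tested, 11.6% were called lower and 28.5% higher, 40.1% in all. The median log2 fold change was -0.54 over the 10 enzymes, with 8 of 10 below 0, against 0.07 over all genes tested, of which 47.7% were below 0. Over 13 hepatocyte markers it was -0.45, with 12 of 13 below 0, so values mostly below 0 were not particular to the enzymes. The median over all genes also depended on level. At a minimum mean of 50, which 1 of the 10 enzymes passed, it was 0.88. The count of enzymes called lower moved with the tool and the scaling, as did the share of all genes called lower, given here in brackets. It was 2 with DESeq2 (11.8%), 5 with quantile normalization (18.3%), 5 with edgeR (21.9%), 6 with upper quartile scaling (25.6%), 6 with total reads without BC071253 (33.2%) and 7 with total reads (38%). When hepatocyte markers set the scale it was 1, Amacr (0.909%), and Cyp7a1 and Slc27a5 were then called higher, as were 38% of all genes.

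**Figure D1:**
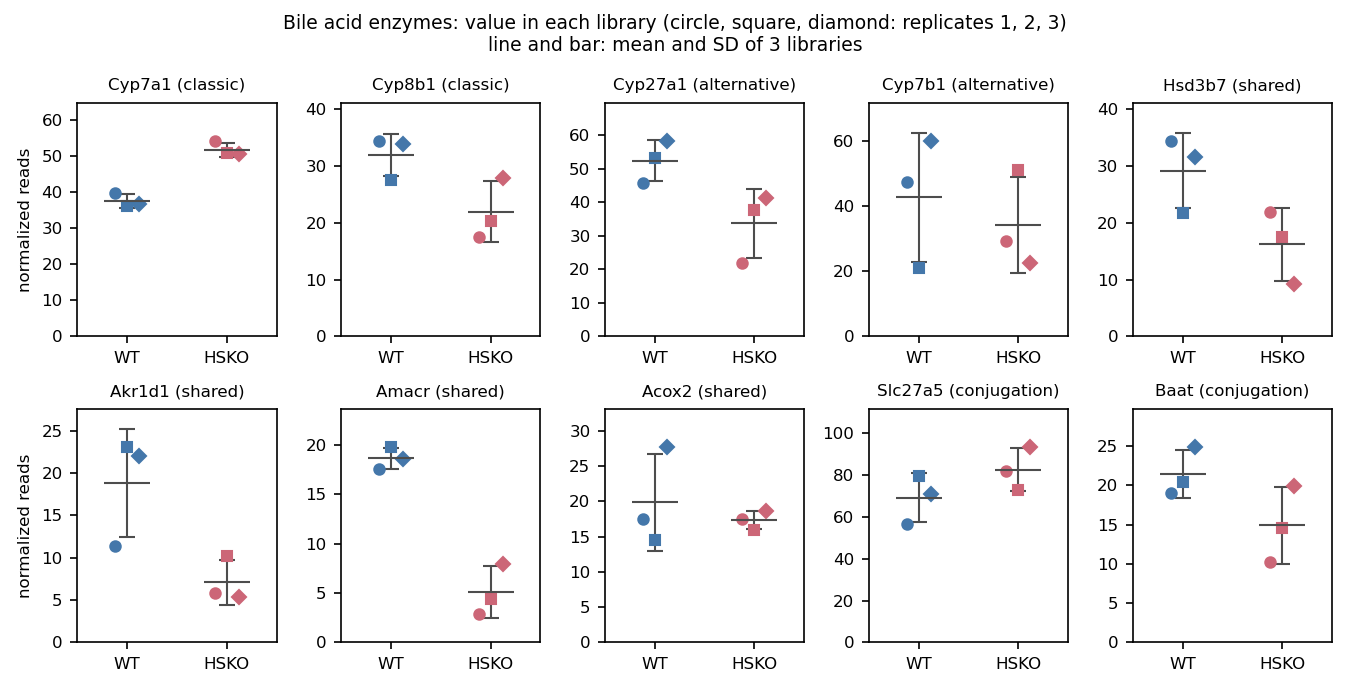
Normalized reads (vertical axis, from 0) of the 10 bile acid enzymes in the 3 WT and 3 HSKO libraries, with the mean and SD of each group. The HSKO libraries lie above all WT libraries for Cyp7a1 and below them for Cyp27a1, Akr1d1 and Amacr, while the groups overlap for the other 6 genes.

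The groups did not overlap for 4 of the 10 enzymes, with Cyp7a1 higher and Cyp27a1, Akr1d1 and Amacr lower in HSKO. Of all genes tested, 51.5% did not overlap, 31.4% with HSKO higher and 20.1% with HSKO lower.

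Cyp7a1, the rate-setting hydroxylase of the classic pathway, lies on chromosome 4 from 6265612 to 6275633 in mm10 (minus strand). Values were 39.7, 36.2 and 36.7 in WT replicates 1 to 3 and 54.1, 50.9 and 50.5 in HSKO replicates 1 to 3. Every HSKO library was above every WT library, and libraries of a group lay close together. The WT mean of 37.5 ± 1.89 compared with 51.8 ± 1.95 for HSKO (n = 3, ± SD), 1.38 times as much, and the difference was not called (log2 fold change 0.46, SE 0.25, limma adjusted p = 0.142). These values rest on 52, 55 and 65 WT reads and 37, 35 and 38 HSKO reads. The spread between replicates was smaller than counting error alone gives on average (chi-square per degree of freedom 0.134 in WT and 0.0514 in HSKO), so the SDs understate the error. From summed reads and size factors, HSKO had 1.39 times the WT level, and counting error alone gave exact 95% bounds of 1.08 and 1.77. Scaled to total reads, its log2 fold change was -0.21, and scaled to hepatocyte markers it was 0.97, which was called (limma adjusted p = 0.0208).

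Cyp8b1, the sterol hydroxylase that directs the classic pathway to cholic acid, lies on chromosome 9 from 121914356 to 121916305. Libraries stood at 34.3, 27.6 and 33.8 in WT and 17.5, 20.4 and 27.9 in HSKO. The groups overlapped slightly, since HSKO replicate 3 was just above WT replicate 2. The WT mean of 31.9 ± 3.73 compared with 21.9 ± 5.37 for HSKO (n = 3, ± SD, log2 fold change -0.54, SE 0.28, limma adjusted p = 0.124). The direction of this difference was thus opposite to that of Cyp7a1, though neither passed. Cyp8b1 was called lower with edgeR (adjusted p = 0.0411), upper quartile scaling (0.0189), quantile normalization (0.0401), total reads (0.00514) and total reads without BC071253 (0.00597).

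Cyp27a1, the mitochondrial enzyme that opens the alternative pathway, lies on chromosome 1 from 74713574 to 74737892. WT values were 45.8, 53.3 and 58.1, and HSKO values 21.9, 37.8 and 41.2. Every HSKO library was below every WT library, with HSKO replicate 1 the lowest. The WT mean of 52.4 ± 6.20 compared with 33.7 ± 10.3 for HSKO (n = 3, ± SD, log2 fold change -0.67, SE 0.28, limma adjusted p = 0.0629), so the difference was not called. It was called lower with edgeR (adjusted p = 0.0146), with the 4 other scalings that called Cyp8b1, and without HSKO replicate 3 (0.0359). Without HSKO replicate 1 the log2 fold change was -0.39.

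Cyp7b1, the hydroxylase that follows in the alternative pathway, lies on chromosome 3 from 18071950 to 18243338. The gene was at 47.3, 21.1 and 59.8 in WT and at 29.2, 50.9 and 22.6 in HSKO. WT replicate 2 and HSKO replicates 1 and 3 were low and the remaining libraries high, so the groups overlapped widely. The WT mean of 42.7 ± 19.8 compared with 34.2 ± 14.8 for HSKO (n = 3, ± SD, log2 fold change -0.27, SE 0.35, limma adjusted p = 0.557). Among the 10 enzymes its replicates differed most beyond counting error, with a chi-square per degree of freedom of 14.4 in WT and 4.56 in HSKO, from 62, 32 and 106 reads and 20, 35 and 17 reads. What set this spread was not tested. Cyp7b1 was called lower with total reads (limma adjusted p = 0.0425), and its log2 fold change was 0.0301 without WT replicate 3.

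Transcripts of enzymes listed under the classic and the alternative pathway were compared through ratios within a library, which do not depend on any single factor that scales a library. Each enzyme was assigned to 1 pathway by the list, and whether it acts in that pathway alone was not tested. A ratio therefore compares 2 transcripts and does not measure the pathways themselves. Quantile normalization, which is not such a factor, moved the log2 difference of Cyp8b1 to Cyp27a1 from 0.12 to 0.22 (exact permutation p = 0.4). The ratio of Cyp7a1 to Cyp27a1 was 0.867, 0.679 and 0.631 in WT and 2.47, 1.35 and 1.23 in HSKO. The ratio was higher in every HSKO library than in every WT library, a difference of 1.15 on the log2 scale (two-sided exact permutation p = 0.1, below which a design of 3 against 3 cannot go, and 0.4 adjusted over the 4 pairs tested). From summed reads the ratio was 2.17 times as high in HSKO, with a 95% interval of 1.52 to 3.09 (Woolf, counting error only). Without HSKO replicate 1 the log2 difference was 0.84. These ratios are not per length and do not order the levels of the genes, since per kb of exon the HSKO mean of Cyp27a1 (15.5) was above that of Cyp7a1 (12.4), with overlapping libraries.

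The ratio of Cyp7a1 to Cyp7b1 was 0.839, 1.72 and 0.613 in WT and 1.85, 1.00 and 2.24 in HSKO, and the groups overlapped (log2 difference 0.74, two-sided exact permutation p = 0.2, adjusted 0.4). For the other classic enzyme, Cyp8b1, the ratios to Cyp27a1 ran from 0.519 to 0.75 in WT and from 0.538 to 0.80 in HSKO (log2 difference 0.12, exact permutation p = 0.7, adjusted 0.7). Those of Cyp8b1 to Cyp7b1 ran from 0.566 to 1.31 in WT and from 0.400 to 1.24 in HSKO (log2 difference -0.29, exact permutation p = 0.6, adjusted 0.7). The 95% counting intervals of the HSKO over WT ratio were 0.711 to 1.65 and 0.581 to 1.36 for these 2 pairs. These bounds leave out the spread between replicates, which for Cyp7b1 went beyond counting error. They therefore do not exclude a change of either sign, inside or outside them.

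Within the classic pathway, the ratio of Cyp7a1 to Cyp8b1, examined after the values were seen and given without a test, was 1.16, 1.31 and 1.08 in WT and 3.08, 2.50 and 1.81 in HSKO. The groups did not overlap, and the log2 difference of 1.03 was close in size to that between Cyp7a1 and Cyp27a1. The ratio of Cyp27a1 to Cyp7b1, chosen in the same way, was 0.968, 2.53 and 0.972 in WT and 0.75, 0.743 and 1.82 in HSKO, with overlapping groups.

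**Figure D2:**
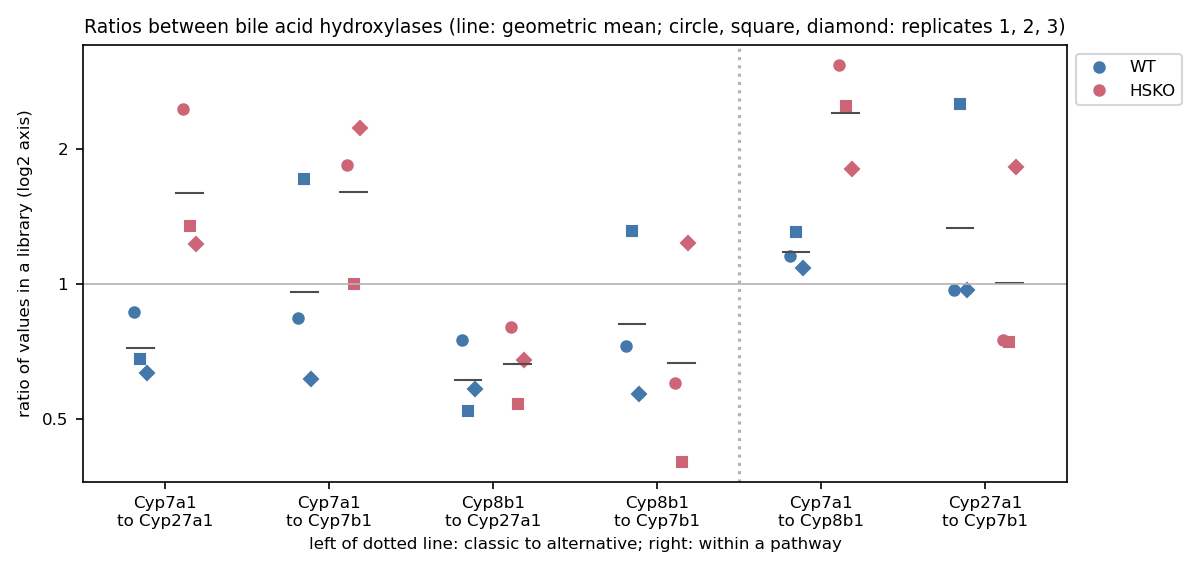
Ratio of the values of a pair of hydroxylases within each library (log2 vertical axis), in 3 WT and 3 HSKO libraries, with the geometric mean as a line. The ratios of Cyp7a1 to Cyp27a1 and of Cyp7a1 to Cyp8b1 are higher in all HSKO libraries than in all WT libraries, while the 4 other pairs overlap.

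Cyp7a1 stood higher in HSKO against most of the set. Its ratio to 7 of the 9 other enzymes was higher in every HSKO library than in every WT library, the exceptions being Cyp7b1 and Slc27a5. The same held against 37.9% of the other genes tested. Cyp7a1 made up 12.3%, 11.4% and 9.54% of the summed values of the 10 enzymes in WT replicates 1 to 3 and 20.6%, 17.2% and 17.0% in HSKO. The widest exact 95% binomial intervals of these shares, for counting error only, were 9.30% to 15.8% in WT replicate 1 and 14.9% to 27.2% in HSKO replicate 1, which overlap. The interval of WT replicate 1 overlapped every HSKO interval, and that of WT replicate 3 (7.44% to 12.0%) lay below them all. That of WT replicate 2 (8.71% to 14.6%) lay below HSKO replicate 1 and overlapped the others. Overlap of single intervals does not test the groups.

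Amacr, the racemase that sets the side chain of the bile acid precursor in the form that peroxisomal oxidation accepts, had the largest difference of the set. It lies on chromosome 15 from 10981756 to 10996626. WT values were 17.6, 19.7 and 18.6, and HSKO values 2.92, 4.36 and 7.98. All HSKO libraries were far below the WT libraries. The mean fell from 18.6 ± 1.10 to 5.09 ± 2.60 (SD, n = 3), 3.66 times lower (log2 fold change -1.77, SE 0.42, limma adjusted p = 0.00314). WT libraries had 23, 30 and 33 reads and HSKO libraries 2, 3 and 6, so the HSKO level rests on few reads. The read ratio of HSKO to WT was 0.277, with an exact 95% interval of 0.133 to 0.521 for counting error. Amacr was called lower in all 20 fits that tested it, which include each scaling above and each library left out in turn, with log2 fold changes from -1.32 (hepatocyte markers) to -2.36 (total reads) over the scalings.

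Akr1d1, the reductase that saturates the sterol ring, lies on chromosome 6 from 37530173 to 37568815. Libraries stood at 11.4, 23.0 and 22 in WT and 5.85, 10.2 and 5.32 in HSKO. The groups did not overlap, but WT replicate 1 was close to HSKO replicate 2. The mean fell from 18.8 ± 6.41 to 7.11 ± 2.67 (n = 3, ± SD, log2 fold change -1.28, SE 0.40, limma adjusted p = 0.0163). Its HSKO libraries had 4, 7 and 4 reads against 15, 35 and 39 in WT. The limma call was lost without WT replicate 2 (adjusted p = 0.107), without WT replicate 3 (0.0999), and also when libraries were scaled to hepatocyte markers (0.170).

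Hsd3b7, the dehydrogenase that acts on the hydroxylated sterol of both pathways, lies on chromosome 7 from 127800604 to 127803802. WT values were 34.3, 21.7 and 31.6, and HSKO values 21.9, 17.4 and 9.31. WT replicate 2 lay just under HSKO replicate 1, so the groups overlapped. The mean fell from 29.2 ± 6.64 to 16.2 ± 6.40 (n = 3, ± SD, log2 fold change -0.86, SE 0.33, limma adjusted p = 0.0413). The call held in 12 of 20 fits. It was lost without WT replicate 1 (adjusted p = 0.123), WT replicate 3 (0.131), HSKO replicate 2 (0.0544) or HSKO replicate 3 (0.178), where the log2 fold change was -0.53, and also with DESeq2 (0.0583), no trend (0.0610), no filter (0.133) and hepatocyte marker scaling (0.567). Exons of the antisense gene 9430064I24Rik and of Gm49388 overlap those of Hsd3b7 in GENCODE M21. The sources used here do not give the strand setting of the counting, so reads of 9430064I24Rik cannot be told apart. Gm49388 lies on the same strand as Hsd3b7, and no strand setting would separate its reads in the shared exons.

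Acox2, the peroxisomal oxidase that shortens the side chain, lies on chromosome 14 from 8225511 to 8259353. The gene was at 17.6, 14.5 and 27.6 in WT and at 17.5, 16.0 and 18.6 in HSKO. The HSKO libraries lay within the range of the WT libraries, of which replicate 3 was high (means 19.9 ± 6.88 and 17.4 ± 1.32, n = 3, ± SD, log2 fold change -0.14, SE 0.31, limma adjusted p = 0.744). The means of the 4 shared enzymes thus ran from 3.66 times lower for Amacr to 1.14 times lower, not called, for Acox2.

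Slc27a5, which joins bile acids to coenzyme A, lies on chromosome 7 from 12988346 to 12998192. WT values were 56.5, 79.6 and 71.1, and HSKO values 81.9, 72.7 and 93.1. WT replicate 2 exceeded HSKO replicate 2, so the groups overlapped (means 69.1 ± 11.7 and 82.5 ± 10.2, n = 3, ± SD, log2 fold change 0.26, SE 0.25, limma adjusted p = 0.404). It was called higher with scaling to hepatocyte markers (log2 fold change 0.78, adjusted p = 0.0489), under which 38% of all genes tested were called higher. Upper quartile scaling, quantile normalization and both scalings to total reads put its log2 fold change below 0. Baat, which adds the amino acid, lies on chromosome 4 from 49489422 to 49506557 and was at 19.1, 20.4 and 24.8 in WT and at 10.2, 14.5 and 19.9 in HSKO. HSKO replicate 3 lay among the WT libraries (means 21.4 ± 3.0 and 14.9 ± 4.87, n = 3, ± SD, log2 fold change -0.53, SE 0.31, limma adjusted p = 0.178). Baat was called lower with upper quartile scaling (limma adjusted p = 0.0387) and with both scalings to total reads. Leaving out 1 library moved the log2 fold change of Baat to -0.31 (HSKO replicate 1) and that of Slc27a5 to 0.13 (WT replicate 1) or 0.17 (HSKO replicate 3).

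**Figure D3:**
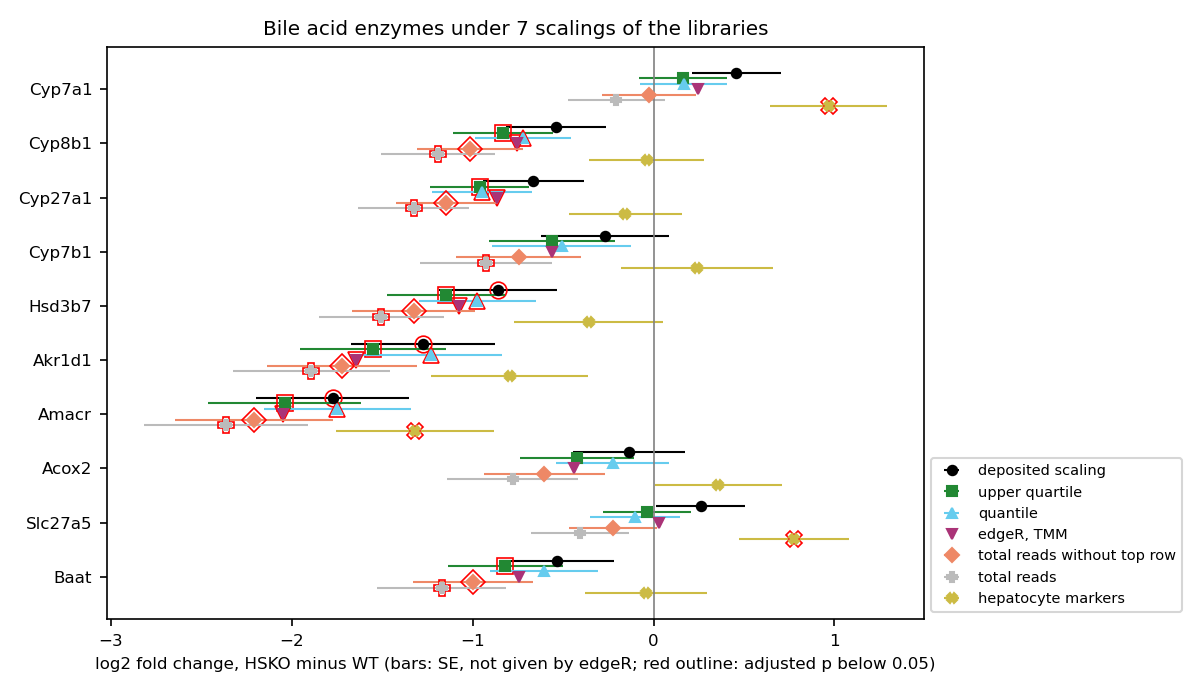
Log2 fold change, HSKO minus WT, of the 10 enzymes (horizontal axis) with the deposited scaling and 6 other scalings of the libraries, with SE bars except for edgeR, and a red outline where the adjusted p was below 0.05. Amacr carries the outline under each of them, and Cyp7a1 ranges from -0.21 with total reads to 0.97 with hepatocyte markers.

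Profiles over the 6 libraries, compared as the root mean square difference of log2(value + 1) after centring each gene, were most alike for Cyp27a1 and Baat (0.129), for Cyp8b1 and Baat (0.156) and for Cyp8b1 and Cyp27a1 (0.231). Cyp7a1 was nearest to Slc27a5 (0.235). The least alike pair was Cyp7a1 and Amacr (1.18). These are descriptions over 6 libraries that share the group difference, chosen after the values were seen.

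Levels of different genes were compared per kb of exon. Slc27a5 had the highest mean in both groups, at 28.3 ± 4.80 normalized reads per kb in WT and 33.9 ± 4.19 in HSKO (SD, n = 3). In WT its libraries overlapped those of Cyp27a1. In WT, Cyp27a1 (24.1 ± 2.85), Cyp7b1 (19.7 ± 9.13) and Cyp8b1 (16.4 ± 1.91) followed, and each of these neighbours overlapped the next in its library values. Cyp8b1 was above Baat (11.04 ± 1.55) without overlap. Baat overlapped Hsd3b7 (10.6 ± 2.40), which overlapped Cyp7a1 (8.99 ± 0.454). Cyp7a1 was above Amacr (7.15 ± 0.420) without overlap, and Amacr, Akr1d1 and Acox2 at the bottom were not separated from their neighbours.

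In HSKO, Slc27a5 was above the next enzyme, Cyp7b1 (15.8 ± 6.83 per kb), without overlap. Cyp7a1, at 12.4 ± 0.468 per kb, moved from the seventh place in WT to the fourth, although it was not separated from Cyp27a1 above it or Cyp8b1 below it. Acox2 (4.69 ± 0.356 per kb) was above Akr1d1 (2.46 ± 0.922) without overlap, and Amacr (1.95 ± 1.00) was last, overlapping Akr1d1. The order used all exons annotated in GENCODE M21, and the sources used here do not name the annotation behind the counts.

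**Figure D4:**
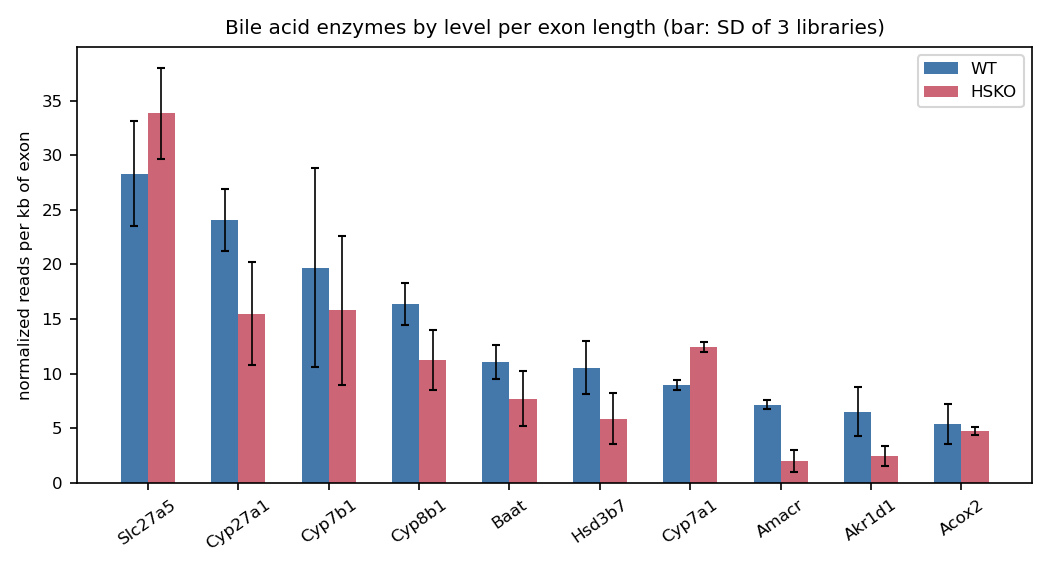
Normalized reads per kb of exon (vertical axis, from 0) of the 10 enzymes in WT and HSKO, as means with the SD of 3 libraries, ordered by the WT level. The mean of Slc27a5 is highest in both groups, at 28.3 and 33.9, although in WT its libraries overlap those of Cyp27a1. Amacr and Akr1d1 are lower in HSKO, and the mean of Cyp7a1 is higher, a difference that was not called.

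Other enzymes and cofactors of bile acid synthesis were lower or not called. Of 14 listed, 10 were tested, of which 6 were lower, 0 higher and 4 neither (median log2 fold change -0.65), where 11.6% of all genes tested were lower and 28.5% higher. Here limma also had 0 higher at an unadjusted p below 0.05. Abcd3, which carries precursors into the peroxisome, fell from 70.4 ± 20.1 to 31.5 ± 3.36, and Hsd17b4, which acts after Acox2 in side chain oxidation, from 53.7 ± 5.62 to 27.1 ± 5.76 (SD, n = 3, limma adjusted p = 0.00381 and 0.00671). The sterol carrier protein Scp2, whose longer form is the thiolase that ends that oxidation, fell from 359 ± 35.1 to 224 ± 24.1. Akr1c6, the aldo-keto reductase, had a log2 fold change of -0.76, the acyl-CoA synthetase Slc27a2 one of -0.61 and Hsd11b1, a glucocorticoid-activating dehydrogenase, one of -1.0. Scp2 and these 3 genes had limma adjusted p values from 0.00593 (Hsd11b1) to 0.0409 (Slc27a2). With scaling to hepatocyte markers none of these 6 genes was called. Leaving out 1 library ended the limma call of Scp2 for WT replicate 2 and HSKO replicates 1 and 2 (adjusted p up to 0.0865), and of Akr1c6 for WT replicates 2 and 3 and HSKO replicate 3 (up to 0.0849). The call of Slc27a2 ended in the same way for WT replicates 2 and 3 and HSKO replicates 2 and 3 (up to 0.148), and with the replicate number as a block (0.0697). With no filter the calls of Scp2 (0.0654), Akr1c6 (0.0529) and Slc27a2 (0.114) were lost, and with no trend those of Scp2 (0.0566) and Slc27a2 (0.0860).

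Cyp2c70, which makes the muricholic acids of mice, was at 45.2 ± 4.82 in WT and 35.3 ± 6.86 in HSKO (limma adjusted p = 0.273). The mitochondrial electron donor of Cyp27a1, Fdx1, was at 15.1 ± 1.46 and 9.78 ± 3.14 (limma adjusted p = 0.175). The thioesterase Acot8 was at 7.71 ± 4.70 and 13.3 ± 2.68 (limma adjusted p = 0.141). It was called higher with hepatocyte marker scaling (limma adjusted p = 0.0440) and without WT replicate 1 (log2 fold change 1.24, limma adjusted p = 0.0485), and its log2 fold change was 0.49 without WT replicate 2. Acot8 had 17, 6 and 11 reads in WT and 9, 11 and 8 in HSKO. The WT mean of Acot8 and the HSKO mean of Fdx1 were below 10. Acot8 thus entered the test through its HSKO libraries and Fdx1 through its WT libraries. Cyp2c70 and Fdx1 were called lower with upper quartile scaling (limma adjusted p = 0.0413 and 0.0476) and with both scalings to total reads, of which total reads gave 0.00773 and 0.0165. Without HSKO replicate 2 the log2 fold change of Cyp2c70 moved from -0.36 to -0.20.

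Among 12 listed regulators 4 were tested, with 1 higher, 1 lower and 2 neither, beside 28.5% higher and 11.6% lower among all genes tested. Nr1i3, the constitutive androstane receptor, rose from 39.0 ± 1.94 to 97.0 ± 22.4, and Ppara, the fatty acid receptor, fell from 42.3 ± 2.72 to 19.6 ± 6.28 (SD, n = 3, limma adjusted p = 0.00114 and 0.00429). The call of Nr1i3 was lost with total reads (limma adjusted p = 0.0794), and that of Ppara when libraries were scaled to hepatocyte markers. Nr1h4 was at 33.9 ± 10.3 in WT and 21.1 ± 2.55 in HSKO (limma adjusted p = 0.0889). It was called lower with upper quartile scaling (0.0138), quantile normalization (0.0351), edgeR (0.0206), total reads (0.00325) and total reads without BC071253 (0.00432), and its log2 fold change moved from -0.62 to -0.41 without WT replicate 1. Hnf4a was at 69.9 ± 4.54 and 67.5 ± 11.1 (limma adjusted p = 0.861) and was called lower with total reads (0.0298). Nr0b2, the corepressor through which Nr1h4 acts on Cyp7a1, had 6, 1 and 6 reads in WT and 2, 3 and 2 in HSKO, too few for a difference to be detectable at this depth. Nr5a2, with 10, 16 and 16 reads in WT and 8, 3 and 3 in HSKO, was below the minimum mean.

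Of 15 listed genes of bile acid transport and handling, 9 were tested, with 5 lower, 0 higher and 4 neither (median log2 fold change -0.95), beside 11.6% lower and 28.5% higher among all genes tested. For these genes limma also had 0 higher at an unadjusted p below 0.05. The canalicular pumps Abcc2, Abcb11 and Abcb4 had log2 fold changes of -1.41, -1.30 and -0.95, the sinusoidal uptake carrier Slco1b2 had -1.10 and the epoxide hydrolase Ephx1 -1.03 (limma adjusted p from 0.000773 for Abcc2 to 0.0133 for Ephx1). Slc10a1, the sodium-dependent uptake carrier of bile salts, was at 79.7 ± 6.99 in WT and 54.7 ± 8.25 in HSKO (limma adjusted p = 0.0817), and was called lower with upper quartile scaling, quantile normalization, edgeR, both scalings to total reads and DESeq2 (adjusted p = 0.0423). Abcg8, which exports sterols into bile, was at 19.8 ± 5.84 and 16.1 ± 2.85, and the sinusoidal exporter Abcc3 at 30.6 ± 4.75 and 26.3 ± 8.20 (limma adjusted p = 0.522 and 0.506). Both were called lower with total reads (limma adjusted p = 0.0462 and 0.0318), and Abcc3 also with total reads without BC071253 (0.0478). The log2 fold change of Abcg8 moved from -0.26 to -0.07 without WT replicate 3, and that of Abcc3 from -0.25 to 0.0117 without HSKO replicate 2. Scaled to hepatocyte markers, Abcc2 was the 1 gene of these 5 that was still called. The limma call of Ephx1 was also lost without WT replicate 3 (adjusted p = 0.115), without HSKO replicate 2 (0.0554) and with no filter (0.0520).

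**Figure D5:**
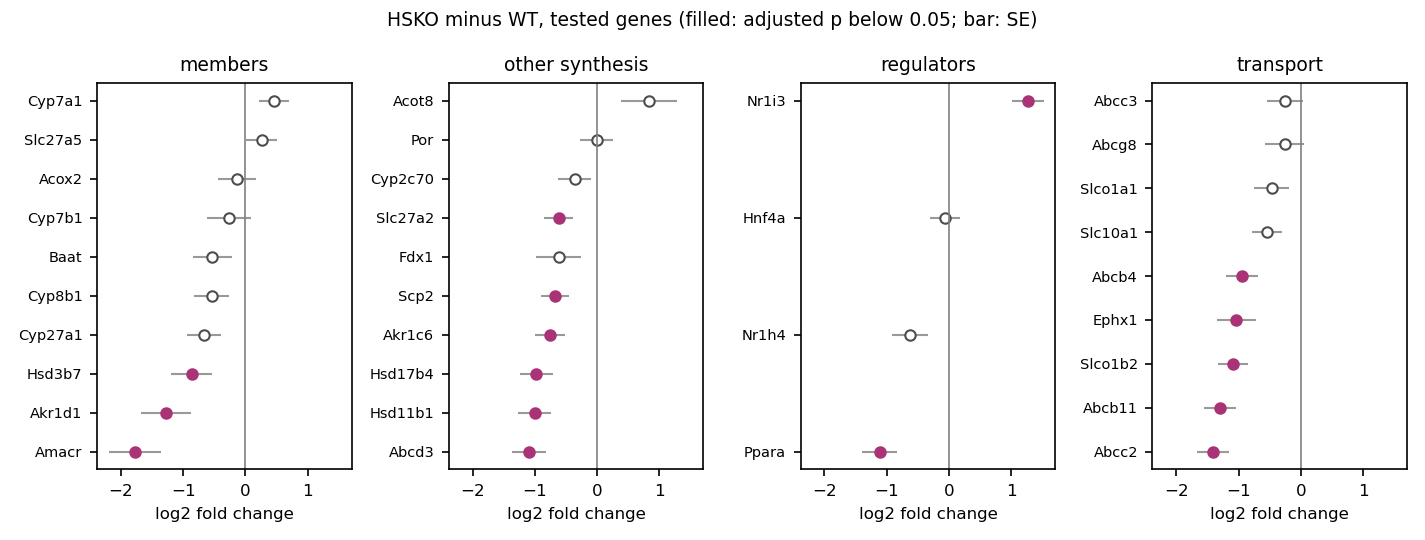
Log2 fold change, HSKO minus WT (horizontal axis), with SE, of the tested genes among the 10 enzymes, other synthesis genes, regulators and transport genes, with filled points for an adjusted p below 0.05. Cyp7a1, Slc27a5, Acot8 and Nr1i3 lie above 0, of which Nr1i3 is filled.

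Marker lists of liver cell types were summed in each library. The 13 hepatocyte markers summed to values of 12973 to 15860 in WT and 8398 to 13002 in HSKO, ranges that just overlap, and 4 of 13 were called lower, 0 higher and 9 neither (median log2 fold change -0.45), beside 11.6% lower and 28.5% higher of all genes tested. At an unadjusted p below 0.05, limma had 1 of the 13 higher, and with adjustment it had none. The 8 Kupffer cell markers summed to 45.8 to 80.3 in WT and 33.4 to 58.5 in HSKO, the 7 endothelial markers to 31.3 to 33.6 and 11.6 to 27.8, and the 6 stellate cell markers to 30.5 to 36.2 and 10.2 to 20.4. These sums rest on few reads. Kupffer cell markers had 60 to 122 reads in WT and 23 to 44 in HSKO. Endothelial markers had 41 to 56 and 8 to 19, and stellate cell markers 40 to 62 and 7 to 14. Of 5 cholangiocyte markers Krt19 and Krt7 had 0 reads in all libraries, as had Cd3e, Nkg7, S100a8 and S100a9 of 7 leukocyte markers. The 5 cholangiocyte markers summed to 10.7 to 15.8 in WT and 5.32 to 17.5 in HSKO, and the 7 leukocyte markers to 1.13 to 3.29 and 0 to 3.99. What part these other cell types had in the results was not tested. Relative to the summed hepatocyte markers, Amacr was called lower and Cyp7a1 and Slc27a5 higher in HSKO, and the other 7 enzymes were not called. Of all genes tested, 0.909% were called lower and 38% higher on this scale.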

How the data were processed

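The authors deposited 1 table of normalized signal, in which the reads of each gene are scaled by 1 size factor for each library. Per the submitters' processing notes, the tools were DESeq 1.16.0, RSEM 1.2.9, Bowtie and FastQC 0.11.3, with build mm10. The sources used here do not give their roles, filters, annotation or strand setting. Dividing each value by that of 1 read gave whole numbers for 100% of values (tolerance 0.001). Members and gene lists were chosen with earlier results of these data known. Groups were compared with limma 3.58.1 (R 4.3.3), fitted to log2(value + 1) with a mean-variance trend and Benjamini-Hochberg adjustment over the 2750 genes with a mean of at least 10. Recovered counts went into edgeR 4.0.16 quasi-likelihood and DESeq2 1.42.0 as alternatives, since the deposited values are not counts. edgeR called 684 genes higher and 601 lower, DESeq2 584 and 325, and limma 783 and 320. Ratios were tested by exact permutation. Coordinates and exon lengths are from GENCODE M21. Named genes were the 10 enzymes, Abca1, called genes of the 3 pathway lists and up to 3 tested but uncalled ones of each, in list order. Nr0b2, Nr5a2, BC071253, the ratios within a pathway, those of Cyp7a1 to other genes, its share, the order per kb and the likeness of profiles were added after values were seen. The fit was tested on simulated data with a spread between replicates set in advance. It recovered 39 of 98 simulated 2-fold changes and 94 of 99 4-fold changes, with 2 false calls among 135. Many 2-fold changes were thus missed there. Other alternatives were the scalings, pseudocounts, filters, a replicate block and leaving out each library. Intervals cover counting error only.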

Additional observations from a re-analysis of the deposited data

How the results depend on the processing

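The number of enzymes called lower in HSKO (3) was 6 with upper quartile scaling and with total reads without BC071253, 7 with total reads, 5 with quantile normalization and edgeR, 1 with hepatocyte markers and 0 at a minimum mean of 50, where Slc27a5 alone was tested. It ran from 1 to 3 with a library left out (1 without WT replicate 3). The number called higher (0) was 2 with hepatocyte markers. Genes called lower (320) numbered 703, 913, 1044, 502, 601 and 25 with upper quartile scaling, total reads without BC071253, total reads, quantile normalization, edgeR and hepatocyte markers, 211 with no filter, 118 at a minimum mean of 50 and 157 to 313 with a library left out (159 without WT replicate 2, 157 without WT replicate 3). Genes called higher (783) numbered 580, 429, 221, 595, 684 and 1045 in the same order of scalings, 391 at a minimum mean of 50 and 581 to 822 with a library left out. Against the deposited scaling, the median over all genes shifted (log2) by -0.28, -0.47, -0.64, -0.09, -0.20 and 0.49 in these scalings and by -0.13 in DESeq2. Directions turned as follows. Cyp7a1 was at -0.21 with total reads and -0.0238 without BC071253. Slc27a5 was at -0.0368, -0.41, -0.22 and -0.10 with upper quartile scaling, total reads, total reads without BC071253 and quantile normalization. With hepatocyte markers Cyp7b1 was at 0.24, Acox2 at 0.36, Cyp2c70 at 0.15, Hnf4a at 0.46, Abcc3 at 0.26 and Abcg8 at 0.24. With a library left out, log2 fold changes ran from -0.70 to 0.0301 for Cyp7b1, -0.33 to 0.12 for Acox2, -0.19 to 0.00721 for Hnf4a and -0.44 to 0.0117 for Abcc3, and log2 ratio differences from 0.84 to 1.34 for Cyp7a1 to Cyp27a1, 0.42 to 1.16 for Cyp7a1 to Cyp7b1, -0.0134 to 0.27 for Cyp8b1 to Cyp27a1 and -0.73 to 0.0810 for Cyp8b1 to Cyp7b1. The cause of these changes was not tested. Correlations of deviations from group means gave no sign that replicate numbers pair the samples. They were -0.026, -0.027 and -0.021 for equal numbers and -0.032 to 0.053 for unequal ones. With few reads and 3 libraries per group, these values cannot exclude a pairing. With the replicate number as a block, 3 enzymes were called lower and 0 higher, 269 genes lower and 751 higher, and the ratio of Cyp7a1 to Cyp27a1 differed by 1.15 (exact sign permutation p = 0.25, the smallest that 3 pairs allow). Slc27a2 lost its call under the block (adjusted p = 0.0697).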
